A study of Mus musculus with 2 samples.

Results

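The 10 genes described here, Trpm7, Magt1, Slc41a1, Slc41a2, Cnnm2, Cnnm3, Cnnm4, Mrs2, Nipa1 and Nipa2, encode channels and transporters of the magnesium ion. They were chosen by symbol from the 32285 genes counted, and each symbol named exactly 1 gene. The counts come from 2 droplet single-cell RNA libraries of mouse cells, in which the 3' ends of transcripts are tagged with unique molecular identifiers (UMIs). The cells were a mixture of femoral marrow and of cells attached to the implant, from mice with an osteoporotic fracture that received a nail in the marrow canal. One library came from mice with a Mg-TAGelMA nail and 1 from mice with a magnesium (Mg) nail, and no group without an implant is analysed here. The name Mg-TAGelMA is that of the sample's description, while its title reads TA-GelMA-implants and does not name magnesium. GelMA is gelatin methacryloyl, a hydrogel, and what TA stands for is not given. The labels state no strain, age, sex, time after surgery or number of mice, do not say how osteoporosis was brought about, and do not say in what proportion marrow and adherent cells were combined.

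Magnesium is held by ATP and is a cofactor of most enzymes that use it, and cells move the ion across membranes through several unrelated families. TRPM7 is an ion channel of the plasma membrane joined to a protein kinase. MAGT1 is a subunit of the oligosaccharyltransferase that attaches glycans to proteins in the endoplasmic reticulum, was also described as a magnesium transporter, and its loss in humans causes an immunodeficiency of lymphocytes. SLC41A1 is known as a sodium-magnesium exchanger and SLC41A2 is a related carrier. The cyclin M proteins CNNM2, CNNM3 and CNNM4 govern magnesium efflux and balance, and are bound by the PRL phosphatases, which the Ptp4a genes encode. MRS2 is the magnesium channel of the inner mitochondrial membrane. NIPA1 and NIPA2 are related membrane transporters, and human NIPA1 is mutated in a hereditary spastic paraplegia.

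The stretches just before the starts of Cnnm2 and Slc41a2 are shown because these were the members whose counts differed most between the libraries. They are RefSeq promoter sequences of build GRCm38.p6, written 5′ to 3′ on the strand of the gene, ending before the first base that either RefSeq or GENCODE annotates as transcribed, and capitals mark CG dinucleotides. The Cnnm2 stretch lies on the plus strand at chr19:46761359-46761595 and the Slc41a2 stretch on the minus strand at chr10:83337883-83338067, and no annotated exon lies in either.
Cnnm2: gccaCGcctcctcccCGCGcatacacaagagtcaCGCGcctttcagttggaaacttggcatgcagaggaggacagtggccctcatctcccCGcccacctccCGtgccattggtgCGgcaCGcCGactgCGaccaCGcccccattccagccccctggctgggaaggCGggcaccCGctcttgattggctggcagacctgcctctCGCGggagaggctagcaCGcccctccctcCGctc
Slc41a2: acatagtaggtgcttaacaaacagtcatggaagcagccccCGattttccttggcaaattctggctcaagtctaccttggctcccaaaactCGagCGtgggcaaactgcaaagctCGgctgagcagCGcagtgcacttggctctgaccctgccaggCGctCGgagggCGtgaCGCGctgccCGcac
They hold 18 and 11 CG dinucleotides. In the full window of 250 bases before the RefSeq start, Cnnm2 had 19 and Slc41a2 had 18, against a median of 6 over 32851 mouse promoters. GATA1 is a transcription factor of red cell precursors, and its letters, GATA preceded by A or T and followed by A or G, were searched on both strands. They were found in the windows of 0 of the 9 members listed, and in 26.5% of all windows of that length. Mrs2 had no entry among the RefSeq promoters. The windows of Nipa1 and Slc41a1 lay wholly inside the GENCODE bounds of those genes. The sequence before the GENCODE starts of Nipa1 and Slc41a1 was therefore not searched.

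The Mg-TAGelMA library held 7591 barcodes and 79890998 UMIs, the Mg library 9466 barcodes and 58261391 UMIs. After filtering, 7226 Mg-TAGelMA cells and 8122 Mg cells remained, with medians of 6744 and 3803.5 UMIs per cell. In all barcodes the 10 members took 29363 Mg-TAGelMA UMIs and 15735 Mg UMIs. Cells were assigned to a class when the markers of 1 cell type stood clear of the others, and such cells are called gated; 6405 Mg-TAGelMA cells and 7036 Mg cells were gated, and no member was a marker. The classes were those of marrow. There were 1807 mature neutrophil-gated Mg-TAGelMA cells and 247 such Mg cells, erythroid-gated cells numbered 119 and 1109, B progenitor-gated cells 160 and 1090, and cells gated as stromal or osteoblast 1 and 7, so bone-forming cells could not be described. A class was compared between libraries when it had at least 100 cells in each, as 8 did, and highest and lowest below refer to these 8 unless a smaller class is named. When the cells of both libraries were clustered together, 29 of 37 clusters held over 95% of their cells from 1 library. Of the 247 mature neutrophil-gated Mg cells, 99.2% fell in a cluster named immature neutrophil, whereas the Mg-TAGelMA cells of that gate lay mostly in clusters named mature neutrophil. The early granulocyte-gated cells were likewise split, with 63.3% of the Mg-TAGelMA cells and 0.358% of the Mg cells in a cluster of that name. Of erythroid-gated cells, 41.2% of the Mg-TAGelMA cells and 89.4% of the Mg cells lay in an erythroid cluster, and 57 of the 119 Mg-TAGelMA cells lay in an unnamed cluster that also held all 27 stem and progenitor-gated cells of that library. Levels are given as CPM, the UMIs of a gene per 1000000 UMIs of its class or library. Intervals are exact, at 95%, and cover counting error only. With 1 library per nail no difference between the nails can be tested. Nail, library preparation and counting software (Cell Ranger 7.0.1 for Mg-TAGelMA, 5.0.0 for Mg) cannot be told apart. By default the later of these versions counts reads in introns and the earlier does not, and whether the defaults were used is not given in the sources used here, so ratios between libraries of genes with long introns may carry the counting.

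Over all kept cells, Cnnm2 and Slc41a2 were far higher in the Mg-TAGelMA library, and the other 8 members differed less than that. Cnnm2 stood at 97.6 CPM in the Mg-TAGelMA library and 7.14 CPM in the Mg library, 13.7-fold higher (12.4 to 15.2), and 36.5-fold higher without erythroid-gated cells. Slc41a2 stood at 15.1 and 1.99 CPM, 7.58-fold higher (6.23 to 9.30). These were the members past the size rule, an interval wholly beyond 2-fold with at least 10 CPM in the higher library. Of the 8 members with at least 10 CPM, 2 were higher and 0 lower, against a background of 15.4% higher and 7.71% lower among the 9015 genes tested. Their median log2 ratio was 0.28, against -0.12 over all genes tested. Both called members have long introns, 113.4 kb in Cnnm2 (chr19:46761596-46880192, plus strand, 9 exon blocks) and 101.7 kb in Slc41a2 (chr10:83230848-83337882, minus strand, 14 exon blocks). The median log2 ratio was 0.92 among genes whose introns exceed 64 kb in the annotation, and -0.40 among those with at most 8 kb. Trpm7, with 73.4 kb of intron, is in the long class too and was 1.17-fold higher (1.12 to 1.21), at 89.2 and 76.5 CPM. How much of the Cnnm2 and Slc41a2 differences comes with intron length was not tested.

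The ratios of the other members spread on both sides of 1. Nipa2 was at 71.5 CPM in the Mg-TAGelMA library and 55.0 CPM in the Mg library, a ratio of 1.30 (1.24 to 1.36). Cnnm4 was at 11.6 and 9.10 CPM, a ratio of 1.27 (1.14 to 1.42). Magt1 was at 51.1 and 63.8 CPM, a ratio of 0.801 (0.765 to 0.839). The lowest ratios among tested members were those of Cnnm3 and Mrs2. Cnnm3 was at 10.2 and 18.2 CPM, a ratio of 0.559 (0.508 to 0.614), and Mrs2 at 12.3 and 22.5 CPM, a ratio of 0.547 (0.502 to 0.596). Slc41a1, at 4.12 and 6.07 CPM, and Nipa1, at 3.24 and 9.19 CPM, stayed under the 10 CPM minimum. The Nipa1 ratio of 0.353 (0.301 to 0.412) belongs to libraries in which erythroid-gated cells took 1.65% of Mg-TAGelMA cells and 13.7% of Mg cells, and without those cells it was 1.32. In sums over all cells, fewer cells of a type and less RNA per cell cannot be told apart.

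**Figure D1:**
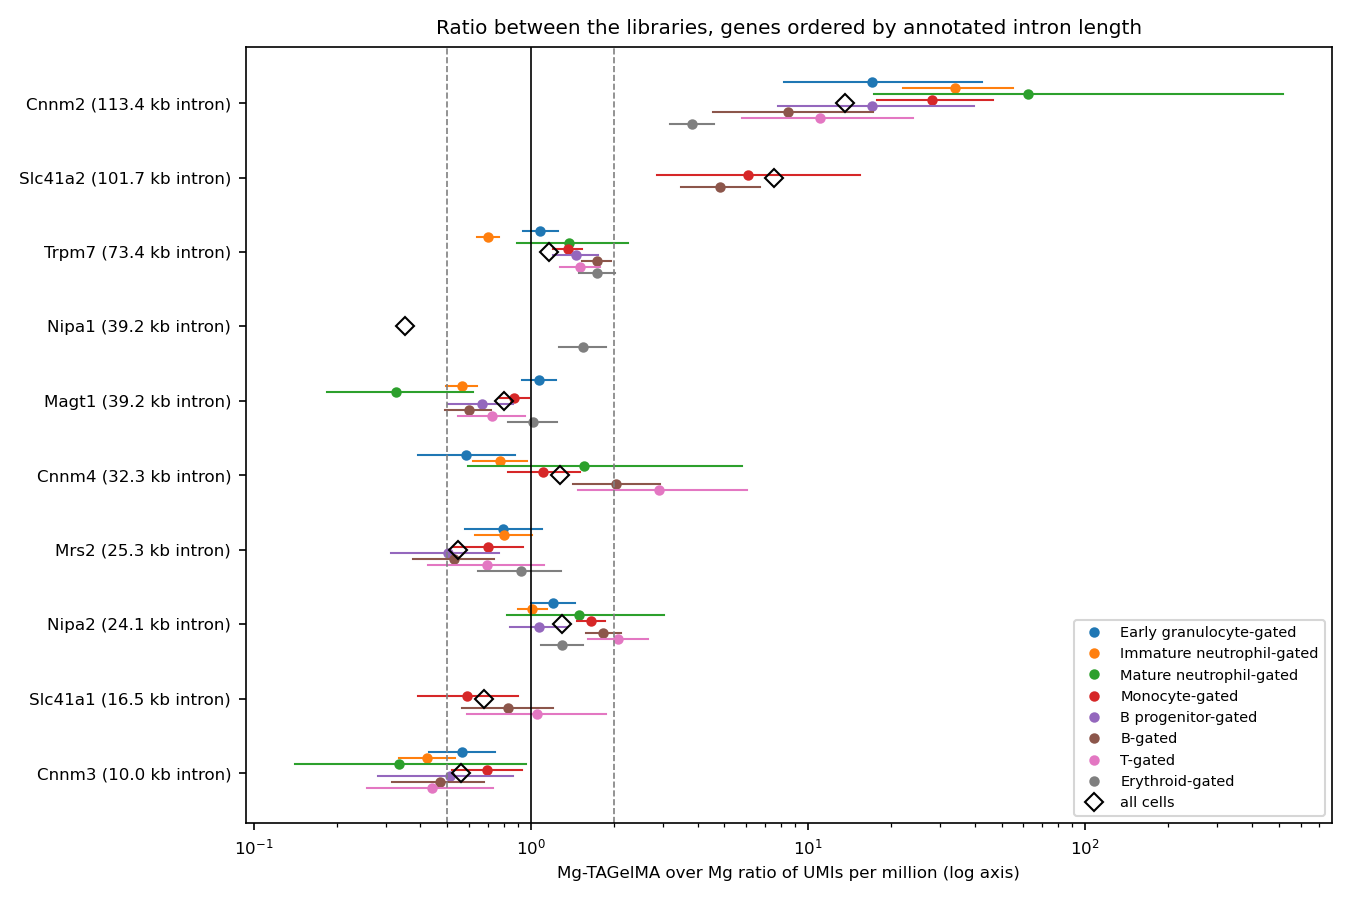
Mg-TAGelMA over Mg ratio of CPM on a log axis, with the genes ordered by annotated intron length and the longest at the top. Filled points are gated classes with exact 95% counting intervals, open diamonds are all cells, and the dashed lines mark 2-fold; Cnnm2 lies right of the upper line in all 8 classes, and pairs under the minimum counts, or with 0 UMIs in 1 library, have no point.

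Within the 8 gated classes, which removes the unequal class shares, 59 of the 80 pairs of member and class reached the minimum, 11 passed the size rule upwards and 0 downwards. The background over all gene-class pairs was 12.2% higher and 2.4% lower, and by class the share higher ran from 6.08% in mature neutrophil-gated to 16.7% in B-gated cells. Of those 11 pairs, 8 were Cnnm2, 1 in each class, and 3 were Slc41a2, in monocyte-gated, B-gated and T-gated cells. With a 50 CPM minimum 4 pairs passed. The level of each member in each class is shown in the panel of levels.

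**Figure D2:**
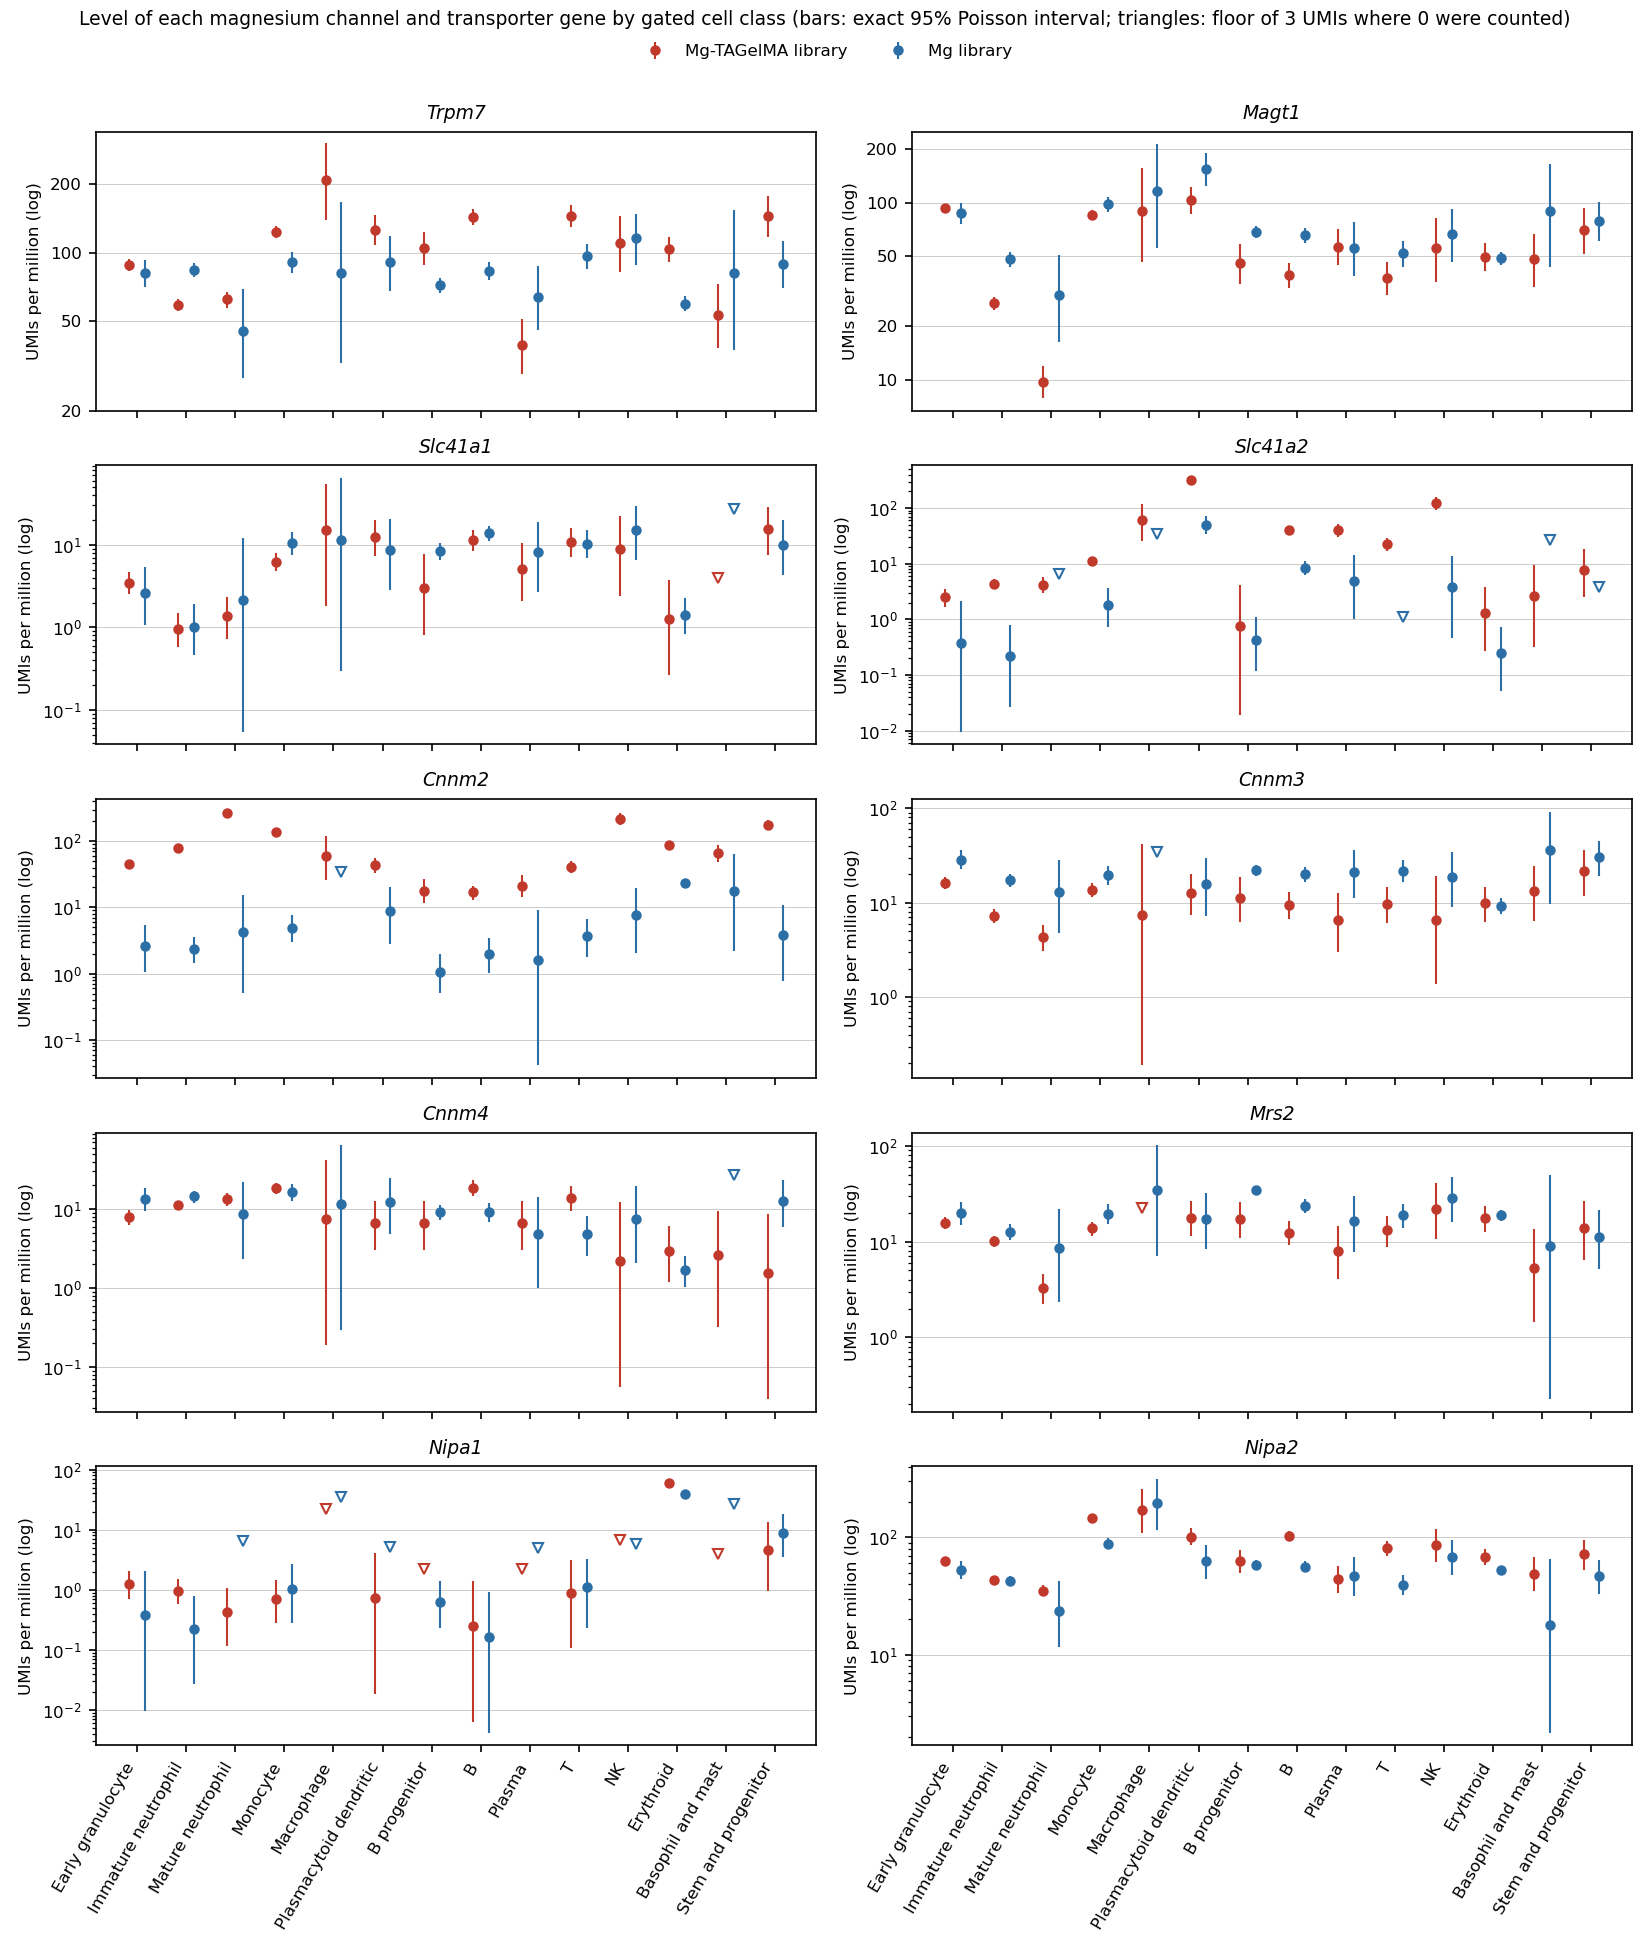
Level of each member in 14 gated classes as CPM on a log axis, Mg-TAGelMA left and Mg right in each pair. Points are sums over the cells of a class, bars are exact 95% Poisson intervals, and open triangles mark 3 UMIs where 0 were counted; Nipa1 stands highest in erythroid cells and Slc41a2 in plasmacytoid dendritic cells in both libraries.

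The channel-kinase gene Trpm7 was found in every class and varied little among the 8 large ones. Its highest level among the 8 classes was in T-gated cells in both libraries, at 145 CPM in Mg-TAGelMA and 96.1 CPM in Mg. The highest level was 2.45 times the lowest in the Mg-TAGelMA library and 2.11 times in the Mg library. The lowest classes were immature neutrophil-gated cells in the Mg-TAGelMA library, at 58.7 CPM (55.4 to 62.1), whose interval overlapped that of mature neutrophil-gated cells at 62.0 CPM (57.1 to 67.2), and mature neutrophil-gated cells in the Mg library, at 45.0 CPM (27.9 to 68.8). That Mg interval covers the 59.5 CPM of erythroid-gated Mg cells. In T-gated, B-gated and monocyte-gated Mg-TAGelMA cells the level was 145, 144 and 123 CPM. The interval of T-gated cells overlapped those of both other classes. Between libraries, Trpm7 was higher in Mg-TAGelMA erythroid-gated cells, at 104 and 59.5 CPM, in the gate split between clusters as given above, and lower in immature neutrophil-gated cells, at 58.7 and 83.6 CPM.

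Magt1 was highest in early granulocyte-gated and monocyte-gated cells and lowest in mature neutrophil-gated cells, in both libraries. Early granulocyte-gated cells had 93.1 CPM (87.8 to 98.7) in the Mg-TAGelMA library and 87.0 CPM (76.2 to 99.0) in the Mg library. Monocyte-gated cells had 85.4 CPM (79.8 to 91.4) and 97.9 CPM (88.3 to 108), so these 2 classes overlapped in each library. Mature neutrophil-gated Mg-TAGelMA cells had 93 UMIs, 9.76 CPM (7.88 to 12.0), and those of the Mg library had 14 UMIs, an interval of 16.4 to 50.3 CPM, a ratio of 0.325 (0.184 to 0.618). The Mg interval covers the 48.0 CPM of immature neutrophil-gated Mg cells, so the lowest class was not resolved in that library. Plasmacytoid dendritic-gated cells, a smaller class of 110 Mg-TAGelMA cells and 60 Mg cells, had 103 and 155 CPM. This was 2.06 and 2.49 times the other gated cells. Of the 10 genes listed as partners of MAGT1 in the oligosaccharyltransferase, 0 passed the size rule over all cells, against the backgrounds of 15.4% higher and 7.71% lower. Within the libraries, 1 of the 80 pairs of these partners and a class was higher and 6 were lower. The backgrounds were 4.1% higher and 8.05% lower over all gene-class pairs, which these partners did not exceed. Ddost, Dad1, Rpn2 and Krtcap2 were more than 2-fold lower in mature neutrophil-gated cells than in other gated cells of both libraries, as were 9.92% of all genes tested in that class. Ddost was higher in early granulocyte-gated cells, 4.06-fold and 2.40-fold, as were 1.29% of all genes. Each of these genes encodes a subunit of that enzyme.

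Slc41a1 was a gene of few UMIs, 309 in the Mg-TAGelMA cells and 335 in the Mg cells, and its highest level among the 8 classes was in B-gated cells. There it stood at 11.4 CPM (8.36 to 15.2) in the Mg-TAGelMA library and 13.8 CPM (10.99 to 17.1) in the Mg library, 3.36-fold (2.39 to 4.64) and 2.75-fold (2.11 to 3.56) the other gated cells. T-gated cells followed in the Mg-TAGelMA library at 10.9 CPM (7.07 to 16.1) and monocyte-gated cells in the Mg library at 10.6 CPM (7.60 to 14.4), and both intervals overlapped that of B-gated cells. Immature neutrophil-gated cells were lowest, at 0.949 and 0.997 CPM on 19 and 9 UMIs. Erythroid-gated cells were next, at 1.28 and 1.42 CPM on 3 and 17 UMIs. Pearson r between the libraries was 0.91 over 8 classes on the log2(CPM + 1) scale.

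Slc41a2 stood out in plasmacytoid dendritic-gated cells, which make type I interferon. They held 425 Slc41a2 UMIs, 315 CPM (286 to 347), in the Mg-TAGelMA library and 29 UMIs, 50.5 CPM (33.8 to 72.5), in the Mg library. Against all other gated cells of the same library this was 33.8-fold higher (29.8 to 38.3) and 33.3-fold higher (20.9 to 51.8), on levels that differed between the libraries. With clusters in place of gates the ratios were 18.6 and 9.71, and 43 of the 45 stem and progenitor-gated Mg cells shared the cluster of the Mg plasmacytoid dendritic cells. Of plasmacytoid dendritic-gated cells, with medians of 11624 and 9045 UMIs, 86.4% and 35.0% had at least 1 Slc41a2 UMI. Of erythroid-gated cells, with medians of 7414 and 4257 UMIs, 2.52% and 0.271% did. After thinning each cell to 1000 UMIs the shares were 24.1% and 10.2% of plasmacytoid dendritic-gated cells, against 0 of 103 and 0 of 997 erythroid-gated cells, which allows up to 2.91% and 0.301%, taken as 3 cells of the total.

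B-gated cells came next among the large classes, with 39.9 CPM (34.0 to 46.6) of Slc41a2 in the Mg-TAGelMA library and 8.31 CPM (6.17 to 10.95) in the Mg library. B progenitor-gated cells had 1 and 4 UMIs, 0.749 and 0.424 CPM, below the B-gated cells in both libraries. This holds for the gated cells only. The B progenitor gate held 160 Mg-TAGelMA cells, whereas clusters of that name held 896 Mg-TAGelMA cells. T-gated cells had 51 UMIs in the Mg-TAGelMA library, against 0 in the Mg one, 20.1-fold higher when the 0 is set to a floor of 3 UMIs. NK-gated cells had 56 UMIs among 47 Mg-TAGelMA cells and 2 UMIs among 93 Mg cells, which was 8.35-fold (6.26 to 10.9) and 1.83-fold (0.218 to 6.78) the other gated cells of each library.

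Cnnm2 differed between the libraries in every class, and the order of its classes differed too. Mature neutrophil-gated cells held 2554 UMIs, 268 CPM (258 to 279), in the Mg-TAGelMA library and 2 UMIs, 4.29 CPM (0.519 to 15.5), in the Mg library, a 62.5-fold difference (17.3 to 517). At least 1 UMI was present in 53.8% of those Mg-TAGelMA cells, with a median of 4988 UMIs, and in 0.810% of those Mg cells, with a median of 1477 UMIs. In B-gated cells, with medians of 4612 and 3269 UMIs, the shares were 6.72% and 0.591%. At 1000 UMIs per cell the mature neutrophil-gated shares were 19.9% and 0.538%, and the B-gated shares 1.84% and 0.122%. The ratio between libraries was 33.9 in immature neutrophil-gated cells (78.8 and 2.33 CPM), 28.0 in monocyte-gated cells (137 and 4.91 CPM) and 17.0 in early granulocyte-gated cells (44.7 and 2.63 CPM). It was 17.0 in B progenitor-gated cells (18.0 and 1.06 CPM), 11.1 in T-gated cells (41.1 and 3.70 CPM) and 8.46 in B-gated cells (16.9 and 1.99 CPM).

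The smallest ratio was in erythroid-gated cells, 3.82 (3.17 to 4.58), at 88.7 and 23.2 CPM, in a gate whose cells lay in different clusters in the libraries. In the Mg library these cells were the highest of the 8 classes, 8.95-fold above the other gated cells (7.08 to 11.4), and they held 278 of the 394 Cnnm2 UMIs, 70.6%. In the Mg-TAGelMA library they stood at 0.865 times the other gated cells (0.750 to 0.994), and mature neutrophil-gated cells led at 3.61 times (3.43 to 3.79). Mature neutrophil-gated Mg cells stood at 0.561 times (0.0677 to 2.04), on 2 UMIs. Pearson r between the libraries was 0.51 over the 8 classes, the lowest of the 10 members. B progenitor-gated cells stood at 0.173 and 0.116 times the other gated cells, and B-gated cells at 0.157 and 0.238 times. In the Mg library those other cells include the erythroid-gated cells, which held most Cnnm2 UMIs. Mg gated cells outside the erythroid class had 2.60 CPM. B progenitor-gated Mg cells had 1.06 CPM and B-gated Mg cells 1.99 CPM, so the B-gated level was closer to that than to 8.38 CPM, the level with erythroid cells included.

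Cnnm3 and Cnnm4 behaved differently from Cnnm2, with no class past the size rule between the libraries. Cnnm3 had its highest level in early granulocyte-gated cells, at 16.1 CPM (13.9 to 18.5) in the Mg-TAGelMA library and 28.5 CPM (22.5 to 35.7) in the Mg library. The intervals of monocyte-gated Mg-TAGelMA cells, at 13.6 CPM, and of B progenitor-gated Mg cells, at 22.0 CPM, overlapped these. The smaller stem and progenitor-gated class had 21.8 and 30.1 CPM, on 14 and 24 UMIs. Ratios of Cnnm3 between libraries ran from 0.335 in mature neutrophil-gated cells to 0.694 in monocyte-gated cells over the classes that reached the minimum. Cnnm4 was lowest in erythroid-gated cells, at 2.99 CPM (1.20 to 6.15) and 1.67 CPM (1.02 to 2.58), which was 0.248 and 0.149 times the other gated cells. Its level in T-gated cells was 14.0 CPM in the Mg-TAGelMA library and 4.81 CPM in the Mg library, on 32 and 13 UMIs, a ratio of 2.91 (1.49 to 6.04).

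Mrs2, the mitochondrial channel gene, was lowest in mature neutrophil-gated cells, at 3.25 CPM (2.21 to 4.62) in the Mg-TAGelMA library and 8.57 CPM (2.34 to 21.9) in the Mg library, the Mg value on 4 UMIs. That Mg interval covers the 12.6 CPM of immature neutrophil-gated Mg cells, the next lowest class. The highest classes of Mrs2 were erythroid-gated Mg-TAGelMA cells, at 17.5 CPM (12.5 to 23.7), and B progenitor-gated Mg cells, at 34.3 CPM (30.7 to 38.3). B progenitor-gated Mg-TAGelMA cells, at 17.2 CPM (10.9 to 25.9), could not be distinguished from the erythroid-gated ones. Ratios between libraries lay from 0.502 in B progenitor-gated cells to 0.921 in erythroid-gated cells over the classes that reached the minimum. The gene shares 5019 bases with Gpld1 on the opposite strand, and whether counting used strand is not stated in the sources used here.

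Nipa1 stood far higher in the erythroid class than in any other large class. Erythroid-gated cells had 139 UMIs, 59.3 CPM (49.8 to 70.0), in the Mg-TAGelMA library and 460 UMIs, 38.5 CPM (35.0 to 42.1), in the Mg library. The other gated cells had 0.870 and 0.723 CPM, so the class was 68.1-fold (49.6 to 94.6) and 53.2-fold (36.1 to 81.7) higher. No other large class exceeded 1.24 CPM in the Mg-TAGelMA library or 1.11 CPM in the Mg library. The smaller stem and progenitor-gated class had 4.67 and 8.79 CPM, on 3 and 7 UMIs. Erythroid-gated cells held 57.2% of all Nipa1 UMIs of Mg-TAGelMA cells and 90.7% of those of Mg cells. Their shares of the UMIs of all genes were 3.13% and 21.7%. Ungated cells held 19.8% and 3.94% of the Nipa1 UMIs, against 11.1% and 10.6% of the UMIs of all genes. At least 1 Nipa1 UMI was found in 38.7% and 22.1% of erythroid-gated cells, with medians of 7414 and 4257 UMIs. In T-gated cells, with medians of 7618 and 5536.5 UMIs, it was found in 0.722% and 0.641%. Thinned to 1000 UMIs, 7 of 103 and 27 of 997 erythroid-gated cells kept a Nipa1 UMI, 6.80% and 2.71%.

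Nipa1 was present along the whole range of haemoglobin content. Erythroid-gated cells were split into 3 equal groups by the share of globin UMIs, and levels were taken as CPM with globin left out of the total. From the lowest to the highest group, Nipa1 stood at 60.2, 76.0 and 64.6 CPM in the Mg-TAGelMA library, and at 45.3, 53.9 and 29.7 CPM in the Mg library. The highest groups rested on 7 and 14 Nipa1 UMIs, with intervals of 26.0 to 133 and 16.2 to 49.8 CPM. The intervals of the 3 groups overlapped in each library. Overlap of intervals this wide cannot show that the level was the same in the groups. Cnnm2 in the same groups stood at 80.1, 121 and 184 CPM in the Mg-TAGelMA library and at 26.2, 36.1 and 25.5 CPM in the Mg library, the highest Mg-TAGelMA group resting on 20 UMIs. Nipa1 (chr7:55977567-56019954, minus strand, 39.2 kb of intron) shares 3302 bases with the noncoding A230056P14Rik on the opposite strand.

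Nipa2, the neighbour of Nipa1 on chromosome 7, had a different pattern. It was found in all 8 classes, highest in monocyte-gated cells, at 145 CPM (138 to 153) in the Mg-TAGelMA library and 88.1 CPM (79.0 to 97.9) in the Mg library. It was lowest in mature neutrophil-gated cells, at 35.2 CPM (31.5 to 39.1) and 23.6 CPM (11.8 to 42.2). The Mg interval covers the 39.2 CPM of T-gated Mg cells. The small macrophage-gated class, 32 Mg-TAGelMA cells and 27 Mg cells, had 172 and 197 CPM, which was 2.48-fold (1.57 to 3.73) and 3.62-fold (2.11 to 5.81) the other gated cells. Nipa2 was 2.06-fold higher in Mg-TAGelMA T-gated cells (1.62 to 2.64), at 80.8 and 39.2 CPM, an interval that reached below 2-fold. The gene shares 1316 bases with the protein-coding Cyfip1 on the opposite strand.

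**Figure D3:**
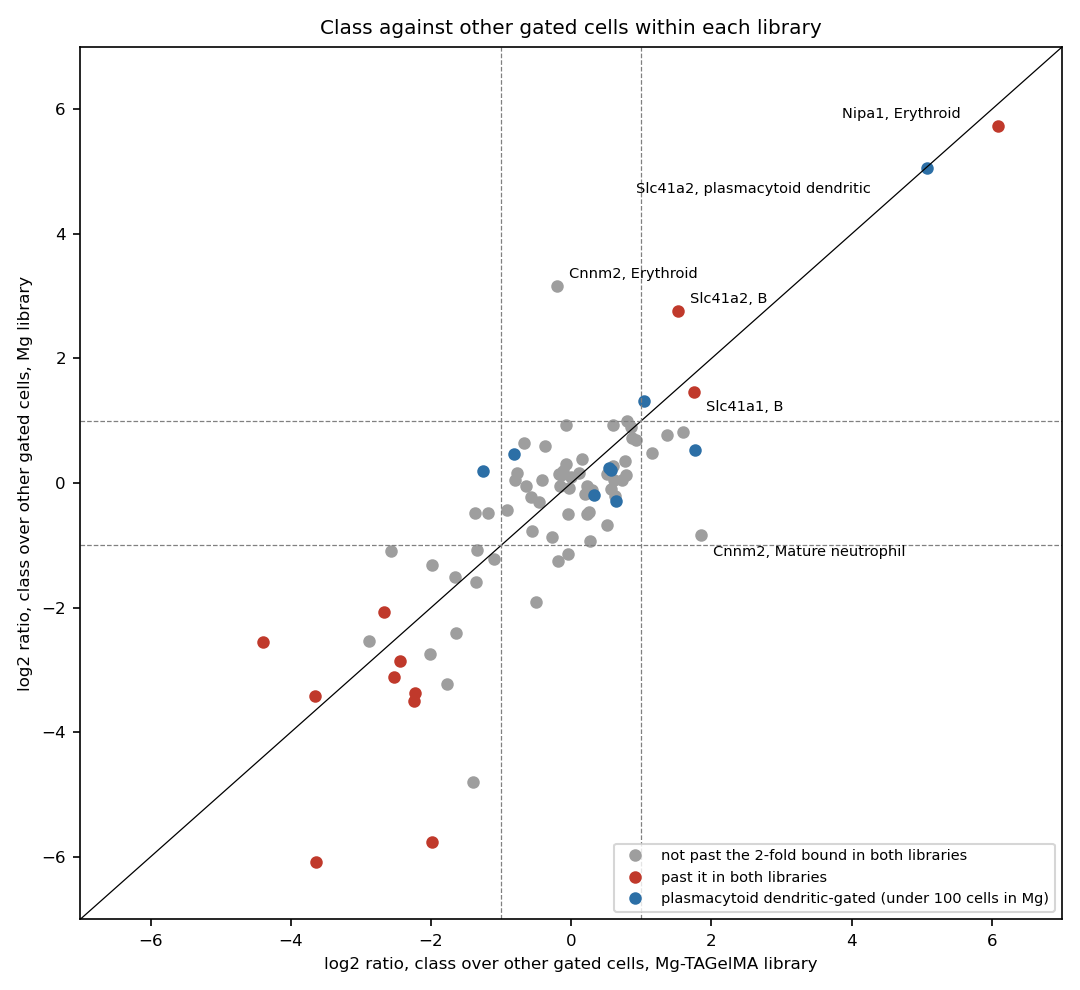
Each point is a member in a gated class, placed by its log2 ratio over the other gated cells of the Mg-TAGelMA library (x) and of the Mg library (y); dashed lines mark 2-fold and the solid line equality. Nipa1 in erythroid cells lies at the upper right, close to the line, and Cnnm2 in erythroid cells and in mature neutrophils lies off it.

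Each class was also set against the other gated cells of its own library, a comparison in which software and preparation are shared. A pair was counted when the interval lay beyond 2-fold in the same direction in both libraries. Of 80 pairs, 3 were higher and 9 lower, against backgrounds of 4.1% and 8.05% of all gene-class pairs. The 3 higher pairs were Nipa1 in erythroid-gated, Slc41a1 in B-gated and Slc41a2 in B-gated cells. The 9 lower pairs were Slc41a1 in immature neutrophils, Slc41a2 in immature neutrophils, B progenitors and erythroid cells, Cnnm2 in B progenitors and B cells, and Nipa1 in immature neutrophils, monocytes and B cells. The other 6 members, Trpm7, Magt1, Cnnm3, Cnnm4, Mrs2 and Nipa2, had 0 such pairs. For the lower Nipa1 pairs, the other gated cells include the erythroid-gated cells, which held most Nipa1 UMIs. Gated cells outside the erythroid class had 0.870 and 0.723 CPM of Nipa1. Immature neutrophil-gated cells had 0.949 and 0.222 CPM, monocyte-gated cells 0.706 and 1.03 CPM, and B-gated cells 0.248 and 0.166 CPM. The lower Nipa1 pairs are thus not independent of the higher erythroid pair. For the lower Cnnm2 pairs, the other gated Mg cells likewise include the erythroid-gated cells, which held 70.6% of the Mg Cnnm2 UMIs. With clusters in place of gates 7 pairs passed, and with every cell thinned to 1000 UMIs 1 pair did. Comparisons within a library share cells. In 0 of the 80 pairs did a member pass the bound upwards in 1 library and downwards in the other.

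**Figure D4:**
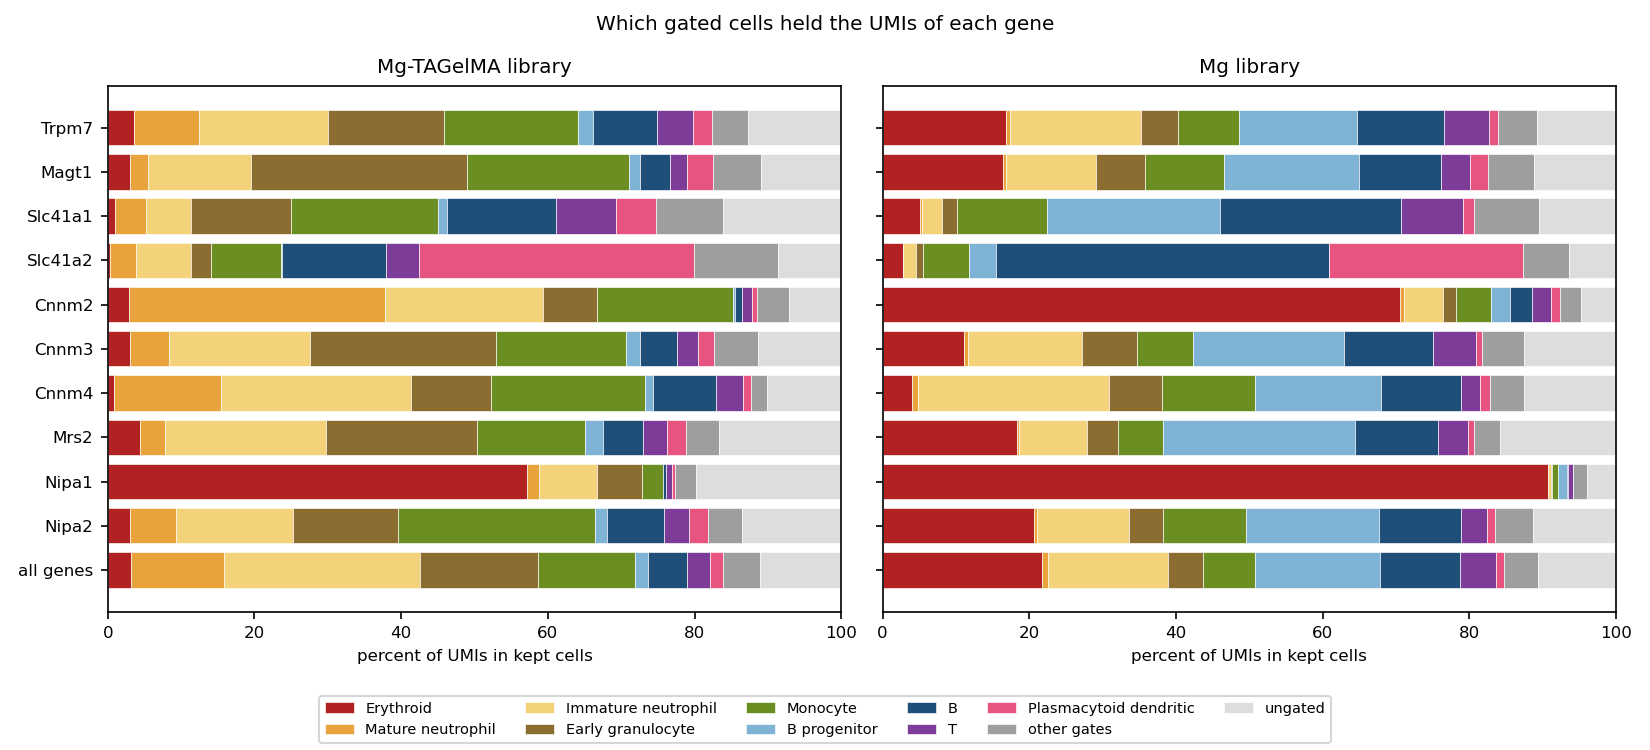
Share of the UMIs of each member, and of all genes, that fell in each gated class, as percent of UMIs in kept cells, in the Mg-TAGelMA library (left) and the Mg library (right). Erythroid cells held most Nipa1 UMIs in both libraries and most Cnnm2 UMIs in the Mg library, where mature neutrophils held few UMIs of any gene.

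Pearson r between the libraries' levels, on log2(CPM + 1) over the 8 classes, was highest for Nipa1 at 0.96, where the erythroid class led in both libraries and the order of the classes after it differed. It was 0.93 for Magt1. It was 0.85 for Mrs2, 0.83 for Nipa2, 0.63 for Cnnm4, 0.62 for Slc41a2, 0.58 for Cnnm3 and 0.55 for Trpm7. These are descriptions over 8 points, and the levels of a library share its depth and preparation. Among the members, Magt1 and Nipa2 followed each other across classes with r of 0.71 in the Mg-TAGelMA library, against 0.90 in the Mg one, and Magt1 and Mrs2 with 0.87 and 0.70. Cnnm4 and Nipa1 had r of -0.76 and -0.82. In both libraries Nipa1 stood far above its other classes in erythroid-gated cells, where Cnnm4 was lowest, so that 1 class weighs heavily in these values.

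Over 9808 genes, the pattern of each member was compared with that of every other gene, and the likeness was the lower of the 2 libraries' r over 8 classes. Trpm7 was most like Axin1 (0.91), Tmem260 (0.90) and Tmem135 (0.89). Magt1 was most like Ufc1, Upf3a and Lrpap1 (0.94, 0.94 and 0.93), and Mrs2 like Gnas, Toe1 and Srsf7 (0.96, 0.96 and 0.95). Slc41a1 was most like Lpxn, Ttc19 and Phf11b (0.96, 0.95 and 0.93), and Nipa2 like Cryl1, Ddi2 and Polb (0.91, 0.89 and 0.88). Cnnm2 was most like Smox, Arrb1 and Isg15 (0.92, 0.83 and 0.82), and Cnnm3 like Slfn9, Dcp2 and Pex6 (0.88, 0.87 and 0.87). Nipa1 had fewer than 300 UMIs in the Mg-TAGelMA library and fell outside the naming rule; it was most like Snx22, Gm9895 and Smim1 (0.98, 0.97 and 0.97), named after their values were seen. Slc41a2, with 110 UMIs in the Mg library, was left out.

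A list of 37 other magnesium genes, 21 of which reached the minimum over all cells, had 1 gene higher and 2 lower past the size rule, against the backgrounds of 15.4% and 7.71%. The gene higher in the Mg-TAGelMA library was Arl15, a small GTPase that binds CNNM proteins, at 234 and 6.98 CPM, 33.6-fold (30.3 to 37.2), and its introns span 359.4 kb, longer than those of any member. Lower were Ptp4a3, a PRL phosphatase, at 62.4 and 155 CPM, a ratio of 0.402 (0.388 to 0.416), and Slc12a3, the sodium chloride cotransporter known from the kidney, at 7.39 and 21.2 CPM, a ratio of 0.349 (0.315 to 0.386). Slc12a3 was 20.6-fold and 12.6-fold higher in B progenitor-gated cells than in the other gated cells, and Ptp4a3 6.47-fold and 2.95-fold. Between the libraries, neither gene was lower past the size rule in that class, where the log2 ratio of Slc12a3 was 0.22. B progenitor-gated cells took 2.21% of the Mg-TAGelMA cells and 13.4% of the Mg cells, a gap that depends on the gate, since clusters named B progenitor held 896 Mg-TAGelMA cells and 1971 Mg cells. Trpm6, the close relative of Trpm7 known from kidney and gut, had 7 and 3 UMIs.

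Within the libraries, 8 pairs of the 224 tested for these other genes were higher in a class and 12 lower, against backgrounds of 4.1% and 8.05% of all gene-class pairs, so the list as a whole did not exceed the background. The pairs named here were chosen after their values were seen. Nipal1, a relative of the NIPA genes, was higher in T-gated cells, 30.5-fold and 49.98-fold, on 13 and 29 UMIs. Cnnm1 was higher in erythroid-gated cells, 19.96-fold and 14.1-fold, on 8 and 9 UMIs, the class where Cnnm2 led the Mg library. Slc25a42, a mitochondrial carrier, was also higher there, 6.30-fold and 6.62-fold. Slc25a24, a carrier of ATP-magnesium across the inner mitochondrial membrane, was higher in immature neutrophil-gated cells, 3.06-fold and 5.51-fold.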

How the data were processed

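Single-cell RNA was measured in 1 library per nail. The authors deposited raw UMI counts per gene and barcode, with no normalization. Per the file headers they were made with Cell Ranger 7.0.1 for Mg-TAGelMA and 5.0.0 for Mg, and per the submitters' processing notes with STAR and mm10. Whether introns or strand were used in counting, and any pooling of mice, are not given in the sources used here.

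Barcodes with at least 200 genes and at most 15% mitochondrial counts were kept, and doublets called by scrublet (scanpy 1.11.5) were removed, 297 (3.95%) of Mg-TAGelMA and 197 (2.37%) of Mg barcodes. The libraries shared 21 barcode sequences. Each cell was scored on 20 marker lists of 5 to 8 genes; a cell was gated when its best score was at least 0.25 and exceeded the next by at least 0.05, limits chosen after the data were seen. In all 14 classes shown, the 10 leading genes held at least as many own markers as markers of any other class. The cells were gated on these same markers, so this is no separate check of the gates.

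The UMIs of each class in each library were added up and expressed as CPM. Ratios carry exact conditional binomial intervals, levels exact Poisson intervals and shares Clopper-Pearson intervals, all at 95%. The size rule asked for an interval beyond 2-fold and 10 CPM in the higher library. The class rule asked for an interval beyond 2-fold in both libraries, for genes with at least 10 UMIs in each. A count of 0 was set to a floor of 3 UMIs for folds, and the limit given for a share of 0 is 3 cells of the total. The rules were tested on simulated data. Python 3.11.15, scipy 1.17.1, edgeR 4.0.16 and DESeq2 1.42.0 (scaling factors only) were used. Intron lengths came from GENCODE vM21, matched by identifier for 99.8% of genes.

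All 10 members are named. Other magnesium genes are named when past the size rule over all cells, and those of the class rule were named after their values were seen. The 3 genes most like a member were named for members with at least 300 UMIs in each library. Those of Cnnm4 are not reported here. The members, marker lists and gene lists were chosen with earlier results of these data known. Ptp4a1 was left out of the list because its symbol names 2 genes, and the marker Ahsp is not among the symbols.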

Additional observations from a re-analysis of the deposited data

Results flagged for a closer look

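Trpm7 differed between the libraries in opposite directions in different classes. The Mg-TAGelMA over Mg ratio was 1.74 in erythroid-gated cells (1.499 to 2.02) against 0.702 in immature neutrophil-gated cells (0.640 to 0.770). Of erythroid-gated cells, 41.2% of the Mg-TAGelMA cells and 89.4% of the Mg cells lay in an erythroid cluster. It lay above 1, with its interval, in 5 classes and below 1 in 1 class.

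Cnnm4 did so as well. Its ratio was 2.91 in T-gated cells (1.49 to 6.04) against 0.583 in early granulocyte-gated cells (0.393 to 0.881), with 2 classes above 1 and 2 below. With 1 library per nail, neither difference between classes was tested. TMM scaling moved the erythroid ratios by -0.37 and the mature neutrophil ratios by 0.35 on the log2 scale.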

How the results depend on the processing

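The counts of members changed as follows. Over all cells, 2 members became 1 with a 50 CPM minimum and 4 with a 1.5-fold bound. In the gated classes, 11 pairs became 4 and 17 under those settings. The class rule gave 12 pairs, then 1 at 1000 UMIs per cell and 7 with clusters in place of gates. The other magnesium genes gave 3, then 0 among genes of up to 8 kb of intron on their own total, which leaves fewer genes, and 7 with a 1.5-fold bound. No member has so little intron, so that setting gave no value for them.

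Of 267 values of single genes under 16 settings, 254 kept direction and side, 5 were weaker, 5 stronger and 3 reversed. Cnnm2 in mature neutrophil-gated over other gated Mg cells, 0.561, became 1.04 with doublets kept and 1.04 at 1000 UMIs per cell; it rests on 2 UMIs. Nipa1 over all cells, 0.353, became 1.32 without erythroid-gated cells. Cnnm2 over all cells ranged from 12.7 to 36.5, the highest without erythroid-gated cells. Slc41a2 ranged from 5.29, at 1000 UMIs per cell, to 8.60. For the remaining values that moved, the cause was not tested. 4 settings were added after the data were seen: scaling all genes to the total of those short-intron genes, a gate margin of 0.1, no erythroid-gated cells and gated cells only. The 2 ribosomal RNA models Gm42418 and AY036118 took 0.120% of Mg-TAGelMA UMIs and 7.07% of Mg UMIs. No paired analysis was possible because each nail has 1 library and the labels give no replicate numbers. Depth limits Slc41a2, Slc41a1 and Cnnm2 most in the Mg library, with 110, 335 and 394 UMIs, and Nipa1 and Slc41a1 in the Mg-TAGelMA library, with 243 and 309.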
